A study of Rattus norvegicus with 12 samples.

Results

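The conjugation enzymes of the liver were read in 12 RNA sequencing libraries of rats given normal feed or a high-fat diet with or without didymin, a flavonoid glycoside of citrus fruit. Members were chosen by name and not by any measured value, as every gene in the count tables whose symbol begins with Ugt and a digit, Gst and a letter, or Sult and a digit. This gave 36 of 16558 genes, of which 7 are UDP-glucuronosyltransferases (UGT), 20 glutathione S-transferases (GST) and 9 sulfotransferases (SULT). Of the 36, 32 had enough counts to be tested among 12355 genes.

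All animals were Sprague Dawley rats, an outbred stock, and the 4 groups held 3 libraries each. The normal group had saline and no high-fat feed. The model group was fed a high-fat diet for 8 weeks, which brings about fatty liver, and the 2 didymin groups had fatty liver brought about by a high-fat diet and were given didymin at a low or a high dose. The sources used here do not say which of the letters D and G of the count columns is the low dose, and the groups are named arm D and arm G. Libraries are given in the order N.1, N.2, N.3 for normal, M.5, M.6, M2.1 for the model, D.1, D.4, D.7 for arm D and G.1, G.3, G.4 for arm G. M2.1 is named unlike the other model libraries, and no label says why. Neither sex nor age is given in the sources used here.

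These 3 families carry out the second step of detoxification, in which a polar group is joined to a drug, hormone or waste product so that it can leave the cell in bile or urine. UGT enzymes sit in the endoplasmic reticulum and add glucuronic acid from UDP-glucuronic acid to bilirubin, steroids, bile acids and flavonoids. GST enzymes join reactive compounds such as products of lipid peroxidation to glutathione. SULT enzymes take sulfate from the donor PAPS and pass it to phenols, steroids and sterols. Several GST genes are classical targets of the stress regulator Nrf2, which binds the antioxidant response element, while the xenobiotic receptors PXR, CAR and the Ah receptor act on genes of these families.

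Total counts per library ran from 12469914 to 15521648. The 13 mitochondrial genes took 4.63, 3.85 and 11.2% of the counts in the normal libraries, 18.8, 44.1 and 4.9% in the model, 16.02, 5.62 and 5.88% in arm D and 6.07, 60.95 and 7.88% in arm G. M.6 and G.3 thus stand apart from their groups, and counts of members are also given without them. The summed level of 9 hepatocyte markers was lowest in the same libraries, at 81868 and 47384 CPM (counts scaled to library size), against 150582 to 203114 CPM in the other 10. Each hepatocyte marker was present in every library. Of the markers of neighbouring organs Umod of kidney was at 0 in 11 of 12 libraries and Cpa1 of pancreas in 10 of 12. Other genes of these lists were present: the kidney markers summed to 4.05 to 18.2 CPM and the pancreas markers to 8.73 to 53.4 CPM. In bulk tissue fewer cells of a type and less RNA per cell cannot be told apart.

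Levels are given as CPM. Counts also grow with the length of a gene, so no order between genes is read from them. Among the UGT genes, Ugt2b37, Ugt2b35 and Ugt2b10 are of the subfamily that acts on steroids and bile acids. Ugt2b37 ran from 848 to 3987 CPM over the 12 libraries with a median of 2095, Ugt2b35 only from 495 to 745, and Ugt2b10 from 65.1 to 316. Ugt1a5, the only gene in the tables from the locus that also makes the bilirubin enzyme, had a median of 1008 CPM. Ugt2a1, best known from the nose, had a median of 55.4 CPM with a lowest value of 6.998. Ugt2b7 was at 0.214 CPM, and Ugt8, which makes galactosylceramide, had 2 counts in 1 normal library and none elsewhere.

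In the GST family the mu class genes Gstm1 and Gstm7 had medians of 852 and 586 CPM. The alpha class genes Gsta1 and Gsta5 were at 507 and 273 CPM, while their relatives Gsta2 and Gsta3 were at 15.1 and 11.1. Gsta4, which detoxifies the lipid peroxidation product 4-hydroxynonenal, had a median of 70.9 CPM, and Gstz1, the maleylacetoacetate isomerase of tyrosine breakdown, of 372. Gstp1, the pi class enzyme known as a marker of early liver tumours in rats, was at 25.6 CPM. The theta enzymes Gstt1, Gstt2 and Gstt3 were at 44.5, 23.4 and 106 CPM, the kappa enzyme Gstk1 at 91.6 and the omega enzyme Gsto1 at 72.02. Gstm4, Gstm6l and Gstm3 had medians of 38.6, 8.87 and 6.92 CPM. Few counts fell to Gstcd (2.13 CPM), Gstm6 (0.62) and Gsto2 (0.353). Gstcd has only a domain related to GST enzymes and is not an established conjugation enzyme.

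Among the SULT genes the phenol sulfotransferase Sult1a1 had a median of 562 CPM. Sult1b1, which sulfates phenols and thyroid hormones, was at 275 CPM and Sult1c3, which sulfates N-hydroxy arylamines, at 159. Sult1c2a was at 61.6 CPM and its close relative Sult1c2 at 3.26 CPM. Sult2b1, the enzyme that sulfates cholesterol, was at 1.79 CPM and Sult5a1 at 0.434 CPM. Gsto2, Sult1d1, Sult6b1 and Ugt8, with 79, 38, 32 and 2 counts over all libraries, are the 4 members that were not tested.

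**Figure D1:**
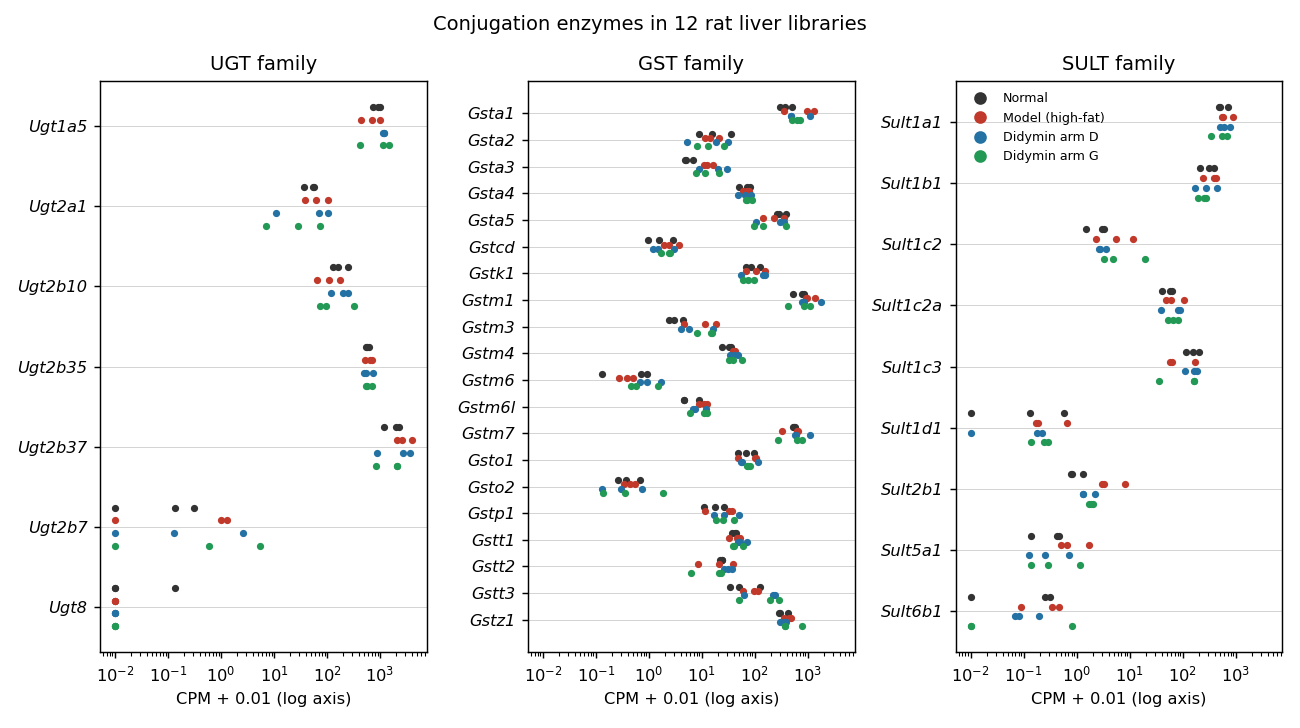
CPM of the 36 conjugation enzymes on a log axis with 0.01 added, 1 point per library, coloured by group, with genes in order of name within each family. Ugt2b35 varies little, from 495 to 745 CPM, and points of the 4 groups overlap for most genes.

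In RefSeq's annotation of assembly GRCr8, 26 of the 36 genes lie within 500 kb of another member, in 7 groups. The widest holds Sult1d1, Sult1b1, Ugt2a1, Ugt2b37, Ugt2b35, Ugt2b7 and Ugt2b10, and the next holds all 6 Gstm genes. Copies within the Gsta, Gstm, Ugt2b and Sult1c groups are alike in sequence, and the counting of reads shared by copies is not stated, so the values of single members of these groups are uncertain. Several Gsta and Gstm symbols are also synonyms of other genes: RefSeq lists Gsta3 as a synonym of its Gsta1, and Gstm3 as a synonym of its Gstm7. It also lists Gsta5 as a synonym of Gsta1 and of Gsta3, Gsta1 of Gsta2, Gsta2 of Gsta5, and Gstm4 of Gstm3. Symbols are used as the tables give them. The Ugt1a enzymes share their last exons, so the count of Ugt1a5 may include other enzymes of the locus. Some neighbours varied alike over the libraries and others did not. Gstm1 and Gstm7 were both highest in D.1, at 1796 and 1113 CPM, and lowest in G.3, at 430 and 271 CPM. Ugt2b35 and Ugt2b37 differed. Ugt2b35 was at 577 ± 36.5, 619 ± 95.5, 592 ± 134 and 601 ± 86.7 CPM in the normal, model, arm D and arm G libraries (SD, n = 3). Next to it Ugt2b37 ran from 848 CPM in G.4 to 3987 CPM in M.5.

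The first comparison sets the model against normal and asks how the high-fat diet bears on the conjugation enzymes. The cholesterol sulfotransferase Sult2b1 and the glutathione transferases Gsta3, Gstm3, Gstm1 and Gstm4 were higher in each model library than in any normal library, as was the low gene Sult5a1. No member was lower in this sense. These 6 of 32 members stand against 5.25% of all 12355 tested genes that were higher without overlap and 5.29% that were lower. Of the 32, 24 had a positive log2 fold change, against 52.6% of all genes, and the median was 0.36, against 0.03 over all genes. The median over members was 0.16 without M.5, 0.20 without N.1 and 0.54 without N.3. By family, 4 of 6 UGT, 14 of 19 GST and 6 of 7 SULT genes were positive. None of the 32, nor any of the 12355 genes, passed edgeR's quasi-likelihood test at an adjusted p of 0.05. At an unadjusted p under 0.05 there were 5 members, against 4.91% of all genes, and 2 without M.6 and G.3 (657 of 12499 genes). Leaving out any 1 library gave 2 to 6. The 2 came without M.6 (353 of 12595 genes), and 6 came without M2.1 (2561 of 12601) and without G.3 (1233 of 12592). Without M.6 and G.3, 9 members were higher without overlap (7.78% of all genes), and without M2.1 14 were higher (22.5%) and 5 lower (21.6%). DESeq2 called 1 member, Sult2b1, and 38 of 16558 genes. Neither limma-voom (0 of 12355 genes called) nor limma-voom with quality weights (6 of 12355) called a member.

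Sult2b1 had the smallest p of the 32 in this comparison. Its levels were 1.28, 0.781 and 0.82 CPM (normal) and 8.1, 2.97 and 3.25 CPM (model). All 3 model libraries lay above all normal ones, and M.5 stood well above the other model libraries. Its log2 fold change was 2.30 ± 0.49 (SE; edgeR adjusted p = 0.415), and it was 1.68 without M.5. With DESeq2 the adjusted p was 0.00673. Sult2b1 is a low gene, with 20, 13 and 11 counts in the normal and 100, 33 and 60 in the model libraries. In the authors' deposited table, which sets normal against the model, Sult2b1 has a log2 fold change of −2.31 and an adjusted p of 0.03. It is 1 of 53 genes with an adjusted p under 0.05 there, of 15929 listed, and the only conjugation enzyme among them. In the authors' deposited tables of arm D and arm G against the model, Sult2b1 has an adjusted p of 0.318 and 0.9999.

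Gsta3, an alpha class enzyme, was at 5.12, 6.67 and 4.77 CPM in the normal libraries and at 12.4, 10.9 and 16.3 CPM in the model. The groups did not overlap, and M2.1 was the highest of the model. This gave a log2 fold change of 1.25 ± 0.44 (edgeR adjusted p = 0.866). Gstm3, of the mu class, was at 3.01, 2.4 and 4.47 CPM in the normal and 11.5, 18.5 and 4.56 CPM in the model libraries. Here M2.1 lay just above the highest normal library, N.3, and M.6 was highest. Gstm3 had a log2 fold change of 1.80 ± 0.59, and of 1.28 without M.6.

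Gsta1, of the alpha class, was at 301, 369 and 505 CPM in the normal and 1312, 958 and 347 CPM in the model libraries, with a log2 fold change of 1.15 ± 0.47. M.5 and M.6 stood above the normal libraries and M2.1 among them. Without M.5 the log2 fold change was 0.73. Gstm6l, of the mu class, was at 4.61, 4.69 and 8.95 CPM in the normal libraries and at 12.4, 11.2 and 8.78 CPM in the model, a log2 fold change of 0.83 ± 0.38, and M2.1 lay just under the normal library N.3. Both had an unadjusted p under 0.05 (edgeR adjusted p = 0.866 for both). Gstm1, the gene of the family with the highest mean CPM, was at 776, 531 and 847 CPM in the normal and 1355, 969.5 and 904 CPM in the model libraries, a log2 fold change of 0.58 ± 0.42 that came to 0.38 without M.5. Its groups did not overlap, though M2.1 and N.3 were close.

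Of the other SULT genes, Sult1c2 was at 3.2, 2.94 and 1.49 CPM in the normal and 2.35, 11.7 and 5.59 CPM in the model libraries, with a log2 fold change of 1.35 ± 0.68 that came to 0.64 without M.6. Sult5a1 had 2, 7 and 6 counts in the normal and 6, 19 and 12 in the model libraries and a log2 fold change of 1.48 ± 0.92, or 0.78 without M.6. Its SE covers most of that value. Sult1a1, with the highest mean CPM of the family, had 0.22 ± 0.33, which changed sign without M.5. Sult1c3 was the 1 SULT gene on the negative side, at −0.71 ± 0.55, with 207, 156 and 116 CPM in the normal and 62.3, 58.1 and 173 CPM in the model libraries, so that M2.1 lay among the normal ones. The Sult1c3 value was −1.41 without M2.1, −0.47 without M.5 and −0.44 without M.6.

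In the UGT family Ugt2b37 had a log2 fold change of 0.65 ± 0.54, with 2266, 1178 and 2038 CPM in the normal and 3987, 2541 and 2065 CPM in the model libraries. M2.1 was below the normal library N.1. Without M.5 the value was 0.33, and without N.2 0.41. Ugt2b10 had −0.60 ± 0.54, which ran from −1.04 without M2.1 to −0.29 without N.1, and the low gene Ugt2b7, with 2, 5 and 0 counts in the normal and 16, 11 and 0 in the model libraries, had 2.25 ± 1.94. None of the 6 tested UGT genes had groups without overlap or an unadjusted p under 0.05.

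**Figure D2:**
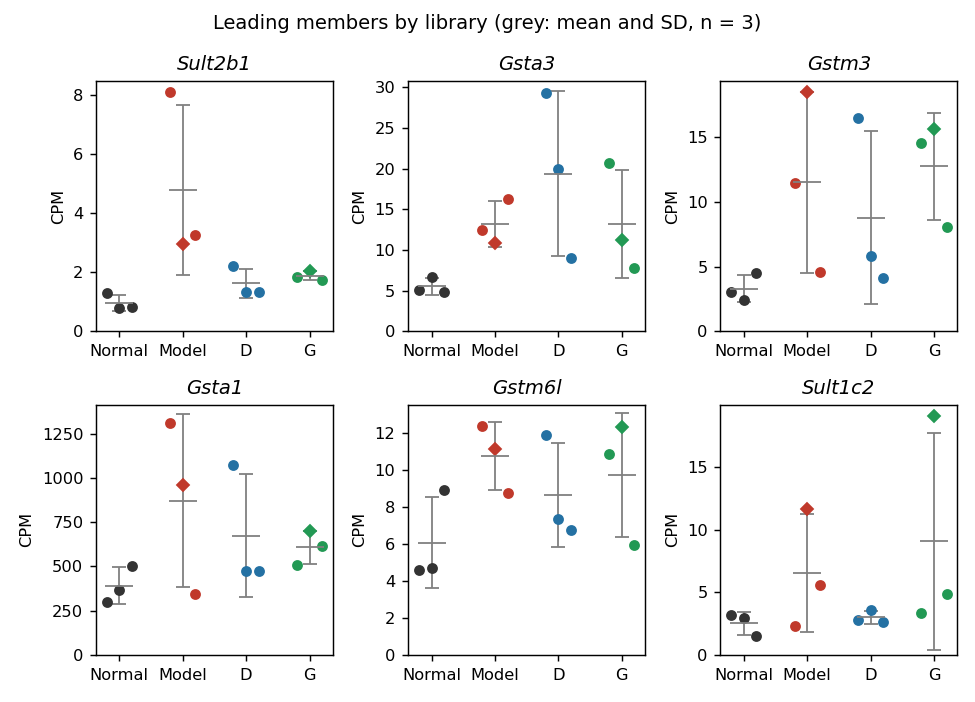
CPM by library for 6 members in the 4 groups, with the mean and SD of each group (n = 3) in grey and M.6 and G.3 drawn as diamonds. Sult2b1 in the model runs from 2.97 to 8.1 CPM, above all other libraries, while Gsta3 is above the normal libraries in all 3 high-fat groups.

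The stretches before the starts of 3 of these genes, those with the smallest p, are shown because they do not share the same motifs. Gsta3 and Gstm3 are GST genes and Sult2b1 is a SULT gene. Of the 36 members 31 were matched by symbol to a promoter in RefSeq (GRCr8), and motifs were searched on both strands from 250 bases before to 50 after the start. Below are the 250 bases before it, read along the gene, with matches in capitals. Gsta3 lies on the plus strand at chr9:31154739-31154988, Gstm3 on the minus strand at chr2:198300668-198300917 and Sult2b1 on the minus strand at chr1:105397745-105397994. Because of the shared symbols, the match of Gsta3 and Gstm3 to the counted genes is uncertain.
Gsta3: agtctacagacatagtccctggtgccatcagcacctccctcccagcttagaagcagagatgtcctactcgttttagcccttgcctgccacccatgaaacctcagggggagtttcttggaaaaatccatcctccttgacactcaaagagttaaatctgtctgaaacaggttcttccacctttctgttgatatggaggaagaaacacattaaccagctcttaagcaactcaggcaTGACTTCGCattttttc
Gstm3: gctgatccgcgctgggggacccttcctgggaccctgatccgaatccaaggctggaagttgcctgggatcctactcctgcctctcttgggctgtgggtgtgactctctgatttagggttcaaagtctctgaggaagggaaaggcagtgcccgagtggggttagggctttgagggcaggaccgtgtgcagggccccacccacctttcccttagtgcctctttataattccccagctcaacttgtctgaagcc
Sult2b1: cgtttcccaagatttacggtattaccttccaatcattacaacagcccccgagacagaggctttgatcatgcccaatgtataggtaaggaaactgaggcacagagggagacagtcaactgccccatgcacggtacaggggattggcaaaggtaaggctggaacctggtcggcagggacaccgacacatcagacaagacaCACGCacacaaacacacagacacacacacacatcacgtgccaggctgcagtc

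In Gsta3 the capitals mark TGACNNNGC, the core of the antioxidant response element, whose first base is 17 bases before the start. The Gstm3 stretch holds none of the 3 motifs searched. In Sult2b1 the capitals mark GCGTG on the opposite strand, the core of the Ah receptor element, at 52 bases before the start. TGACNNNGC was found in 7 of 31 member promoters (22.6%), against 12.2% of all 27457 promoters of this length. The 7 are all GST genes: Gsta1, Gsta2, Gsta3, Gstcd, Gstm7, Gstp1 and Gstz1. GCGTG was in 7 of 31 (22.6%, against 31.1% of all) and AGGTCA, a core bound by nuclear receptors, in 3 (9.68% against 15.7%). TGACNNNGC and AGGTCA can share bases. A match is a run of letters and was not tested as a site.

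Levels of some members differed between libraries of 1 group along with the mitochondrial share. In M.5, M.6, D.1 and G.3, the libraries with the highest shares, Gsta1 was at 699 to 1312 CPM, and in the other 8 at 301 to 614 CPM. Gstp1 was at 32.8 to 49.6 CPM in those 4 libraries and at 10.9 to 26.2 CPM in the other 8. Sult1c3 lay the other way, at 35.96 to 109.9 CPM in the 4 libraries and 116 to 207 CPM in the rest. These 3 genes were picked after their values were seen. All 4 libraries are of high-fat groups and none is normal, so diet and mitochondrial share cannot be fully told apart here. Gstz1 was highest in G.3, at 786 CPM, while Sult1a1 was lowest there, at 339 CPM. The library sizes behind CPM include the mitochondrial counts, and the order of libraries can differ on nuclear-coded counts alone. Sult2b1 was at 2.04 to 8.1 CPM in the 4 libraries and at 0.781 to 1.85 CPM in 7 of the other 8. M2.1 was the exception at 3.25 CPM, with a mitochondrial share of 4.9%. Gsta3 was at 10.9 to 29.2 CPM in the 4 libraries, and M2.1, D.4 and G.1 of the other 8 lay within that range. The part of the mitochondrial share in the fold changes was not tested.

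**Figure D3:**
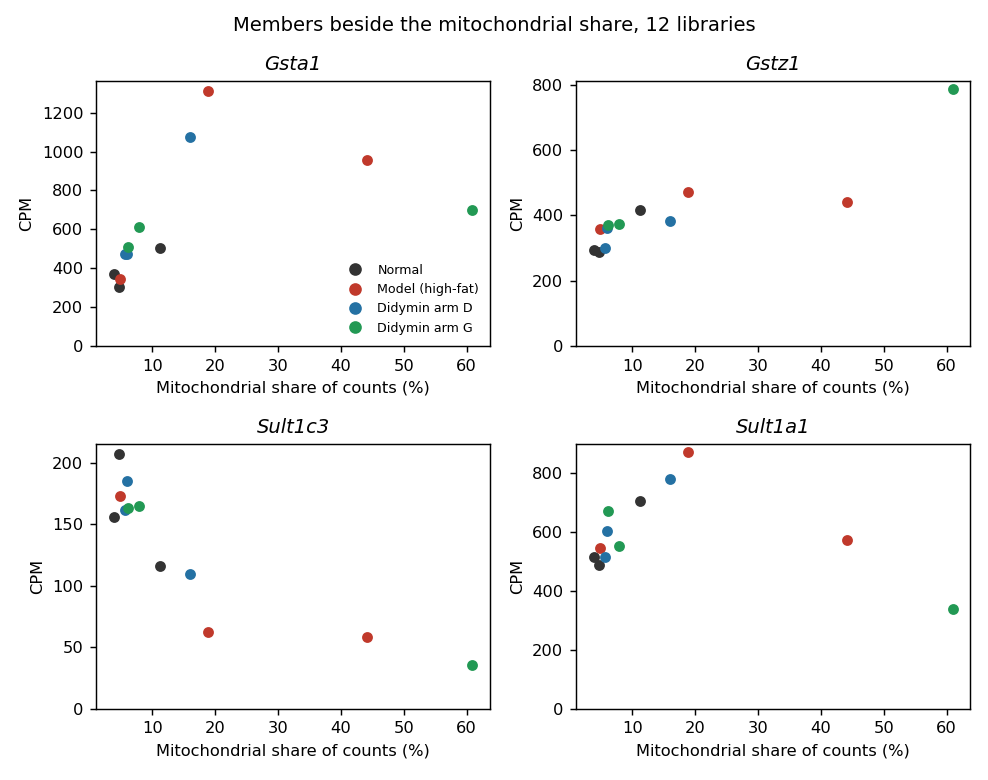
CPM of Gsta1, Gstz1, Sult1c3 and Sult1a1 in 12 libraries against the share of counts from the 13 mitochondrial genes (%), coloured by group. Gsta1 is higher and Sult1c3 lower in the 4 libraries with the highest shares, which are all of high-fat groups.

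All 9 high-fat libraries, with and without didymin, were then set against the 3 normal ones. Gsta3 and Sult2b1 were higher in each of the 9 than in any normal library, against 0.809% of all genes, and no member was lower in each (0.963% of all genes). Without M.6 and G.3 these 2 and Gstm7 were higher (1.42% of all genes), and without M2.1 the same 2 (1.85%). For Sult2b1 the gap was small: D.4 was at 1.32 CPM (23 counts) and D.7 at 1.33 CPM (22 counts), against 1.28 CPM (20 counts) in N.1. Gsta3 in the didymin arms was at 29.2, 19.9 and 8.96 CPM (arm D) and 20.6, 11.2 and 7.83 CPM (arm G). The log2 fold change of the high-fat mean over normal was 1.44 ± 0.39 (edgeR adjusted p = 0.402, and 0.0350 with DESeq2). Sult2b1 had 1.33 ± 0.42 and Gstm3 1.72 ± 0.52, and these 3 were the members with an unadjusted p under 0.05, against 6.52% of all genes. With any 1 library left out there were 3 to 6, and the 6 came without G.4, beside 852 of 12666 genes. Gstm3 in the arms ran from 4.12 to 16.5 CPM, and D.7 was below the normal library N.3. In edgeR 11 of 12355 genes (0.089%) passed an adjusted p of 0.05, none of them a conjugation enzyme. DESeq2 called 1 member (Gsta3) and 87 of 16558 genes, and limma-voom no member and 2 of 12355 genes. With quality weights limma-voom called 4 members (Gsta1, Gstm3, Gstm6l and Sult2b1) and 875 of 12355 genes. Of the 32, 26 were positive, against 52.1% of all genes, with a median of 0.31 against 0.02. That median was 0.17 without D.1, 0.20 without N.2, 0.21 without M.5 and 0.46 without N.3. This comparison shares its normal and model libraries with the first.

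Each didymin arm was compared with the model to ask whether didymin moved the enzymes in fatty liver. Sult2b1 was lower in each library of both arms than in any model library. It was at 2.2, 1.32 and 1.33 CPM in arm D and 1.85, 2.04 and 1.73 CPM in arm G. These lay between the model and the normal group and above all normal libraries, though D.4 and D.7 only just above N.1 (1.28 CPM). Set against the model, Sult2b1 had a log2 fold change of −1.56 ± 0.47 in arm D (edgeR adjusted p = 0.783) and −1.35 ± 0.47 in arm G (adjusted p = 0.9997). For the mean of both arms it was −1.45 ± 0.38. Without M.5 these values were −0.95, −0.73 and −0.84. The model libraries are the same in all of these comparisons and in that with normal. Sult2b1 was the 1 member lower without overlap in arm D (6.71% of all genes), in arm G (2.09%) and in both arms together (0.882%). Without M.6 and G.3, Gstk1, Gstm4, Sult2b1 and Sult5a1 were lower in arm G (13.5% of all genes), and Sult2b1 was the 1 member in arm D (9.07%) and in both arms (5.86%). Without M2.1, Gstz1 and Sult2b1 were lower in arm D (19.3%), Gsta1, Gsto1, Sult1b1, Sult2b1 and Ugt2b37 in arm G (8.92%), and Sult2b1 in both arms (4.78%).

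No member passed an adjusted p of 0.05 in edgeR, DESeq2 or limma-voom, with or without quality weights, for arm D, arm G or both against the model. Nor did any of all 12355 genes in edgeR or in either limma-voom fit, and DESeq2 called 12, 5 and 6 of 16558 genes. In edgeR Sult2b1 was in each of these comparisons the 1 member whose unadjusted p was under 0.05, as it was for 6.28%, 2.32% and 4.61% of all genes. Without M.6 and G.3 there were 1, 2 and 2 members, beside 855, 584 and 871 of 12499 genes. Without M2.1 there were 3, 2 and 3, beside 1802, 814 and 1446 of 12601 genes. Without M.5 there was none for arm G or both arms, beside 314 and 622 of 12645 genes. Without G.3 there were 2, 3 and 3, beside 1429, 921 and 1605 of 12592 genes. In arm D 15 of 32 members were positive, with a median of −0.03 against −0.04 over all genes (46.7% positive). Arm G had 15 of 32 positive and a median of −0.02 against 0.001. With 1 library left out, the median over members ran from −0.28 to 0.083 in arm D and from −0.28 to 0.021 in arm G.

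Higher than the model without overlap were Gstm6 and Ugt1a5 in arm D (5.93% of all genes) and none in arm G (2.61%) or in both arms together (1.21%). Without M.6 and G.3 these 2 genes were higher in arm D (9.19%), in arm G (13.9%) and in both together (5.58%). Without M2.1, Gstm6, Gstt2, Sult1c3, Ugt1a5 and Ugt2b10 were higher in arm D (20.2%) and none in arm G (10.2%) or in both (6.26%). Ugt1a5 was at 1157, 1185 and 1164 CPM in arm D and at 699, 432 and 1011 CPM in the model. Arm D was even, and M2.1 was the nearest model library. Ugt1a5 had a log2 fold change of 0.71 ± 0.43 in arm D and 0.49 ± 0.43 in arm G, where G.3 at 420.5 CPM lay below all model libraries. Without M.6 these values were 0.45 and 0.23, and the arm G value ran from 0.11 without G.1 to 0.87 without G.3. Gstm6, a low mu class gene with 2 to 29 counts per library, had 1.49 ± 0.75 in arm D and 1.13 ± 0.77 in arm G, or 0.43 without G.4. Gstt3, of the theta class, had 0.95 ± 0.66 and 0.95 ± 0.66, and its levels were 60.4, 94.9 and 117 CPM (model), 219.8, 244 and 61.1 CPM (arm D) and 283, 193 and 50.9 CPM (arm G). The lowest library of each arm, D.7 and G.4, was near or below the lowest of the model. The Gstt3 value was 0.63 in arm D without D.4 and 0.42 in arm G without G.1.

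Other members with the smallest p of their family did not separate the groups, and the values of most moved by over 1.5 times when 1 library was left out. Gstt1 had 0.37 ± 0.27 in arm D, and 0.20 without M.6 or 0.18 without D.1. Gstk1 had −0.49 ± 0.42 in arm G, and −0.15 without M.5. Sult1b1 had −0.57 ± 0.37 in arm G. Sult5a1 had −1.41 ± 0.92 and −0.96 ± 0.92 in arms D and G, and −0.71 and −0.26 without M.6. Sult1c2 had −1.12 ± 0.67 in arm D, and −0.41 without M.6. Ugt2b10 had 0.68 ± 0.54 in arm D, from 0.39 without M.6 to 1.11 without M2.1. Ugt2b37 had −0.24 ± 0.53 and −0.78 ± 0.54 and Ugt2a1 −0.16 and −0.91 ± 0.79. Without G.4 the arm G values were −0.47 and −0.43, and without M.5 −0.46 and −0.46. Both of these neighbours were lowest in D.4 and G.4, where Ugt2b37 was at 891 and 848 CPM and Ugt2a1 at 10.96 and 6.998 CPM, against 1178 and 28.1 CPM or more elsewhere. Gstm1 and Sult1a1 had 0.09 ± 0.42 and −0.07 ± 0.33 in arm D and −0.43 ± 0.42 and −0.35 ± 0.33 in arm G.

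**Figure D4:**
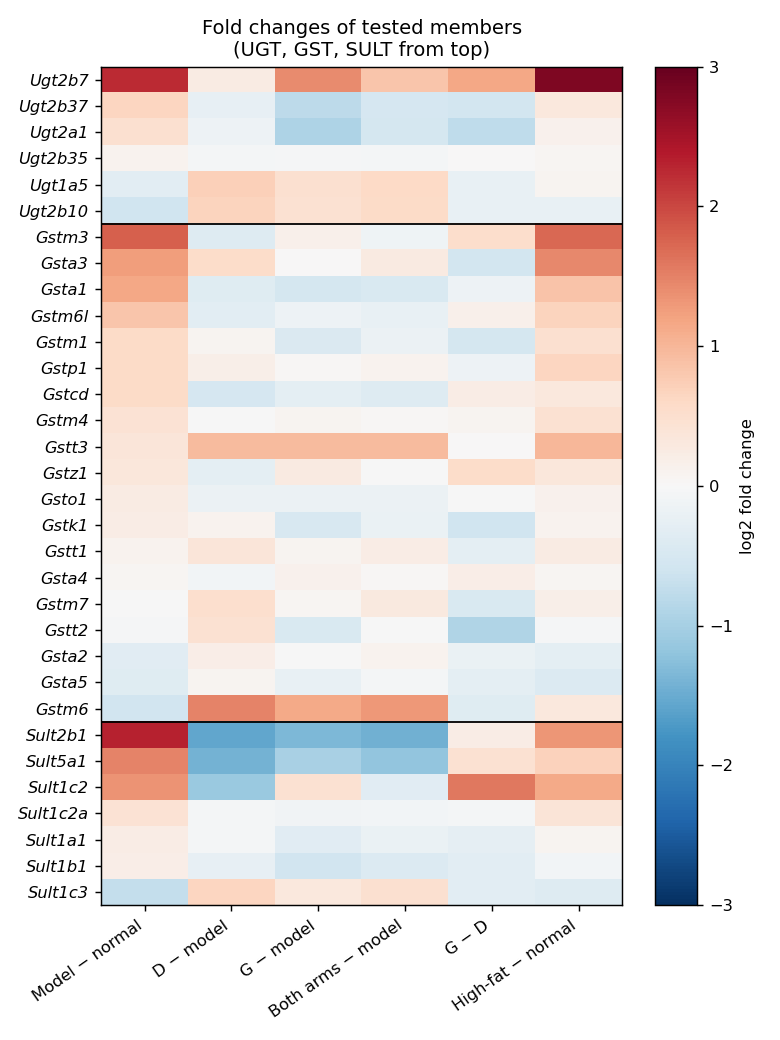
Log2 fold changes of the 32 tested members in 6 comparisons from edgeR, by family and sorted by the model against normal. Red is higher in the group named first. Sult2b1 is red in the model against normal (2.30) and blue in both arms against the model, while most UGT genes are pale.

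Between the arms, Gstt2 was the 1 member without overlap, lower in arm G at 22.5, 6.13 and 21.3 CPM than in arm D at 37.7, 26.4 and 30.5 CPM, against 3.35% of all genes lower and 4.08% higher. Its log2 fold change, G over D, was −0.91 ± 0.51, and −0.54 without G.3. Gstt2 was also the 1 such member without M.6 and G.3 (8.56% of all genes lower). Of the 32 members, 12 were positive, against 49% of all genes. At an unadjusted p under 0.05 Sult1c2 was the 1 member (3.42% of all genes), with 1.58 ± 0.68, and G.3 alone at 19.1 CPM was high: without it the value was 0.43 and no member had such a p, as also without both M.6 and G.3. Without G.1 there were 4, beside 889 of 12630 genes. Gstz1 had 0.55 ± 0.33, and 0.083 without G.3. Gstk1 had −0.59 ± 0.42, and −0.33 without D.1. The UGT genes with the smallest p were Ugt2b37 (−0.54 ± 0.54), Ugt2a1 (−0.76 ± 0.79) and Ugt2b7 (1.17 ± 1.65), and without D.1 the first 2 came to −0.12 and −0.15. Ugt2b7 changed sign without G.3. No member passed an adjusted p of 0.05 in edgeR, DESeq2 or limma-voom, with or without quality weights. Between the arms none of all 12355 genes passed in edgeR or in either limma-voom fit, and DESeq2 called 5 of 16558 genes.

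Genes that supply these enzymes or act on them were read from 7 lists drawn up by function, and no gene of them passed an adjusted p of 0.05 in edgeR in any comparison. Of all genes 52.6% were positive in the model against normal and 52.1% in the high-fat mean. Against the model 46.7% of all genes were positive in arm D and 50% in arm G. The shares with an unadjusted p under 0.05 were 4.91%, 6.52%, 6.28% and 2.32%, in the same order. Of 14 regulators, 8 were positive and 6 negative in the model against normal, and 2 had an unadjusted p under 0.05. Nfe2l2, which codes for Nrf2, was at 77.2, 57.9 and 77.9 CPM in the normal, 90.98, 163 and 129 in the model, 119, 99.1 and 136 in arm D and 143, 149 and 114 in arm G. All 9 high-fat libraries were above all normal ones. The log2 fold change was 0.84 ± 0.23 for the high-fat mean (edgeR adjusted p = 0.415) and 0.85 ± 0.27 for the model. Against the model 13 of 14 regulators were negative in arm D, among them Nr1i2, the gene of PXR (−1.17 ± 0.55), and Ppara, a lipid sensor (−1.52 ± 0.68). Each depended on 1 model library. Nr1i2 was at 131, 355 and 99.6 CPM in the model and came to −0.42 without M.6. Ppara was at 3.97, 11.1 and 31.7 CPM in the model and 4.82, 5.74 and 5.81 CPM in arm D, and came to −0.45 without M2.1. In arm G 7 of 14 were negative, with Cebpa, a hepatocyte factor, at −0.89 ± 0.36. G over D was 1.22 ± 0.55 for Nr1i2 and 1.10 ± 0.45 for Ahr, the gene of the Ah receptor, and both were highest in G.3. Without G.3 the Nr1i2 value was 0.30.

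Hpgds, the prostaglandin D synthase of blood-derived cells and a glutathione transferase of the sigma class by structure, had the smallest p among all listed genes in arm D against the model. It was at 4.8, 3.55 and 4.996 CPM in the normal and 2.59, 1.26 and 2.71 CPM in the model libraries, a log2 fold change of −1.01 ± 0.40 without overlap. In arm D it was at 4.4, 8.95 and 8.9 CPM and in arm G at 4.79, 3.06 and 4.23 CPM, each above all model libraries, with 1.75 ± 0.40 (edgeR adjusted p = 0.783) and 0.87 ± 0.40. Markers of Kupffer cells, the macrophages of the liver, were read beside it. All 8 tested were negative in the model against normal and positive in both arms against the model. In arm D all 8 had an unadjusted p under 0.05, against 6.28% of all genes. In arm G none of the 8 had such a p, and all 8 were negative in arm G against arm D. Their summed level was 622, 633 and 457 CPM in the normal, 493, 210.0 and 318 in the model, 448, 1355 and 888 in arm D and 676, 310.2 and 627 in arm G. Their part in the values of Hpgds was not tested. The other 4 genes of this list, which make or use leukotrienes or belong to the microsomal GST enzymes, had no unadjusted p under 0.05.

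Of 11 tested exporters of conjugates, 8 were negative in the model against normal and 9 in the high-fat mean, where Abcc4 had −0.98 ± 0.37 and Abcc2, the canalicular pump of glucuronides, −0.82 ± 0.43. Without N.1 these were −0.59 and −0.53. Abcg2, which exports sulfates and flavonoids, was lower in each library of both arms than in any model library. It was at 4.78, 3.33 and 7.05 CPM in the model, 2.48, 3.33 and 0.908 in arm D and 2.94, 2.16 and 0.831 in arm G, and D.4 and M.6 differed by less than the digits given. Its log2 fold changes were −1.18 ± 0.56 and −1.36 ± 0.56. In the supply of UDP-glucuronic acid and the removal of glucuronide 4 of 5 genes were negative in the model and 5 of 5 positive in arm D, with the glucuronidase Gusb at −0.54 ± 0.30 and 0.69 ± 0.30, or −0.29 and 0.43 without M.6. In sulfate supply and removal 5 of 8 were negative in the model, and Papss2, which makes PAPS, had −0.40 ± 0.18 for the high-fat mean while Papss1, its relative, had 0.38 ± 0.27, from 0.22 without N.2 to 0.59 without N.3. Of 10 tested genes of glutathione supply 4 were positive and 6 negative in the model, with none at an unadjusted p under 0.05, and of 9 for methyl, acetyl and amino acid conjugation 5 were positive. Nat1, an N-acetyltransferase, had 0.63 ± 0.31 in the model and −0.58 ± 0.26 in both arms against it.

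**Figure D5:**
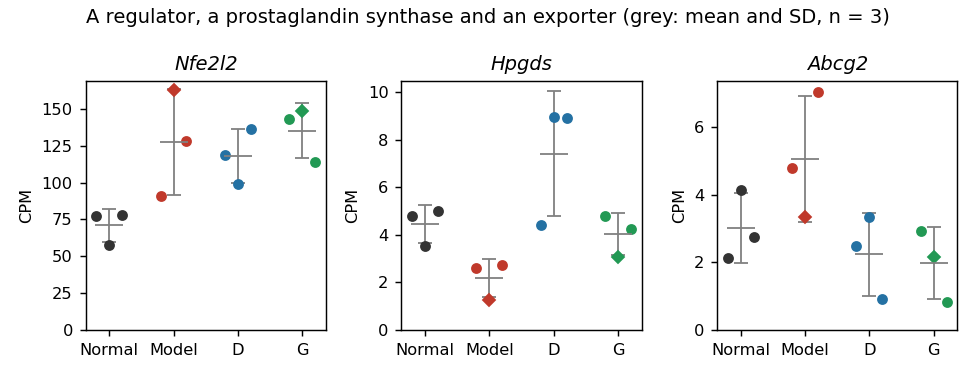
CPM by library of Nfe2l2, Hpgds and Abcg2 in the 4 groups, with the mean and SD of each group (n = 3) in grey and M.6 and G.3 as diamonds. Nfe2l2 is above the normal libraries in all 9 high-fat libraries.

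Conjugation enzymes of rat liver differ between the sexes, so sex-biased genes were read beside them. The Y-linked Kdm5d and Eif2s3y were present in all 12 libraries, and Ddx3y, with few counts, in all but D.4. Cyp2c12, the female-predominant cytochrome P450, was at 76.7, 27.5 and 34.5 CPM in the normal and 6.16, 9.63 and 5.42 CPM in the model libraries, a log2 fold change of −2.71 ± 0.44, and −2.06 ± 0.31 in the high-fat mean (edgeR adjusted p = 0.0323). Of the 3 female-predominant genes 2 were among the 11 genes called there, both lower, and Cyp2c12 is 1 of these. The call of Cyp2c12 was lost when N.1 (edgeR adjusted p = 0.323), N.2, M.5, D.1, D.4, D.7 or G.1 was left out. The other female-predominant genes Prlr and Srd5a1 were lower without overlap in the model too, at −4.40 ± 0.97 and −1.39 ± 0.45. Among the male-predominant genes Cyp2c11 had 0.29 ± 0.47, Cyp2c13 −0.20 ± 0.39 and Cyp3a2 −0.48 ± 1.20. All 3 changed sign when 1 model library was left out, and Cyp3a2 came to −3.84 without M2.1. Of the periportal markers 5 of 6 were negative in the model, 4 of them at an unadjusted p under 0.05 (4.91% of all genes). Of the pericentral ones 4 of 6 were negative, none at that p. Cholangiocyte markers summed to 18.9, 23.4 and 31.4 CPM in the normal and 38.4, 44.4 and 13.7 CPM in the model libraries. The part of these differences in the values of the conjugation enzymes was not tested.

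Summed over genes, the UGT family took 0.429, 0.328 and 0.411% of the nuclear-coded counts in the normal and 0.636, 0.576 and 0.479% in the model libraries, so the groups did not overlap. The GST family took 0.276, 0.275 and 0.359% and 0.523, 0.519 and 0.389%, also without overlap, and the SULT family 0.106, 0.117 and 0.14% and 0.163, 0.169 and 0.134%, with overlap. In arm D the shares were 0.672, 0.347 and 0.561% (UGT), 0.633, 0.386 and 0.341% (GST) and 0.156, 0.116 and 0.141% (SULT), and in arm G 0.524, 0.569 and 0.285%, 0.438, 0.522 and 0.331% and 0.134, 0.127 and 0.107%. D.4 and G.4 were low in the UGT share, in which Ugt2b37 weighs most, and both arms overlapped the model in the UGT and GST shares and the normal group in all 3. In the SULT share arm D overlapped the model, while all 3 arm G libraries lay below all model libraries, G.1 by less than the digits given. These sums follow the few abundant genes and were not tested.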

How the data were processed

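Liver RNA was extracted with Trizol, and libraries were made with the NEBNext Ultra kit, as the labels' protocols say. The authors deposited 3 tables of raw read counts per gene, each of 6 libraries, per the file headers. The authors' deposited tables also hold per gene log2 fold changes with p-values, raw and adjusted, quoted only where that table is named. DESeq2 and the build mm9, which is of mouse, stand in the submitters' processing notes. Aligner, counter, annotation and strand use: not given in the sources used here. Another 36 per-sample columns were not used. Tables were joined on gene name, with 0 where a table lists no row.

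Counts were tested in edgeR 4.0.16 (R 4.3.3): filterByExpr, TMM scaling, 1 quasi-likelihood fit of 12 libraries with 4 group means, 8 residual degrees of freedom and a common biological coefficient of variation of 0.409, and Benjamini-Hochberg adjustment over 12355 genes at 0.05. The script was tested on simulated data. Alternatives used DESeq2 1.42.0 and limma 3.58.1. Whether libraries of a group came from separate animals is not stated, so p-values measure only their spread, which may be technical. Members and lists were chosen with earlier results of these data known. Named were, per comparison, members past the threshold, the 3 of each family with the smallest p and its gene of highest mean CPM, and up to 2 genes per list; members without overlap between groups, Gstm6l, the sex-biased genes and markers were named after their values were seen. 1 gene of the regulator list and its motif are not reported here.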

Additional observations from a re-analysis of the deposited data

How the results depend on the processing

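All 6 comparisons were refitted under 9 other settings and with each of the 12 libraries left out. The count of members called was 0 with edgeR and stayed 0 when any 1 library was left out, in all of them. Few genes of any kind were called by edgeR: 11 of 12355 in the high-fat mean and none in the other comparisons. With 1 library left out the most was 19 of 12601 genes, in the high-fat mean without M2.1. DESeq2 called 1 member in the model against normal (Sult2b1), with 38 of 16558 genes called. It called 1 in the high-fat mean against normal (Gsta3), with 87 of 16558 genes called. In the latter limma-voom with quality weights called 4 (Gsta1, Gstm3, Gstm6l, Sult2b1), with 875 of 12355 genes called. The cause was not tested. The median log2 fold change over members in arm D against the model moved from −0.03 to −0.34 with quality weights.

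These signs turned. Without M.5, Sult1a1 came to −0.033 in the model against normal, 0.18 in arm D, 0.041 in both arms and −0.0055 in the high-fat mean, Ugt2b37 to 0.079 in arm D and Gstm1 to 0.031 in both arms. In arm D Gstm1 came to −0.015 without M2.1, −0.38 without D.1 and −0.39 with quality weights, and Ugt2b37 and Sult1a1 to 0.16 and 0.063 without D.4. For arm G over arm D, quality weights gave 0.056 for Gstm1 and 0.020 for Sult1a1, Sult1b1 came to 0.067 without D.1, and Ugt2b7 to −1.55 both without G.3 and without M.6 and G.3. In the high-fat mean Ugt2b10 came to 0.0049 without M.6 and G.3 and 0.085 without N.1, and Sult1a1 to −0.023 without N.1. Sult2b1 kept its direction in all fits, from 1.68 to 2.56 in the model against normal with 1 library left out. Low genes (Sult2b1, Sult5a1, Gstm6, Ugt2b7) are limited by their counts. Overlap without M.6 and G.3 or M2.1, and list genes with 1 library left out, were alternatives chosen after seeing the data. No paired analysis was possible because the count columns do not carry the replicate numbers of the labels.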
